A study of Mus musculus with 4 samples.

Results

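Plasmacytoid dendritic cells (pDCs) were followed in single-cell RNA libraries of mouse bone marrow. A pDC was taken here as a kept cell with at least 2 unique molecular identifiers (UMIs, each standing for 1 captured RNA molecule) of Siglech, at least 1 UMI of Ccr9, Klk1 or Cox6a2 together, at most 1 UMI of Cd79a, and S100a8 and S100a9 under 10% of its UMIs. A cell was kept when between 500 and 4000 genes were detected and no more than 15% of its UMIs were mitochondrial. This rule found 407 pDCs among 31457 kept cells of 36942 barcodes. Of these, 130 came from the TWT library, 134 from IL-6 KO, 133 from TKO and 10 from DKO, so that 397 cells in 3 libraries carried the comparisons below.

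The series profiled red cell-depleted marrow of femur and tibia with a 3′ droplet assay, 1 library per genotype, in a mouse model of myelodysplastic syndrome. All mice were C57/B6 and 12 months old by the labels, and how many mice went into a library was not stated. TWT mice were IL6+/+, mDia1+/+ and miR146a+/+. IL-6 KO mice were IL6-/- with both other genes intact, DKO mice were mDia1-/- and miR146a-/- with IL6+/+, and TKO mice lacked all 3. The deletions were constitutive, so they were present in every cell type and not in pDCs alone. With 1 library per genotype no test across mice was possible. Intervals are 95% exact intervals that cover counting error only, and differences between libraries may be differences between mice, sexes or preparations, which cannot be told apart.

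pDCs are sentinels of viral infection. They take up nucleic acids, sense them in endosomes through Toll-like receptors, and can release type I interferon in large amounts. They develop in bone marrow under the E protein Tcf4 and share a number of genes with developing lymphocytes. Unlike conventional dendritic cells they present antigen weakly until activated. Of the deleted genes, Diaph1 (mDia1) encodes a formin that builds actin filaments, miR-146a dampens Toll-like receptor signaling, and Il6 encodes an inflammatory cytokine.

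miR-146a-5p is the mature RNA that DKO and TKO mice lack. It is shown because it is 1 of the 3 deletions, and 3′ libraries of long RNA do not count it. The sequence was copied from RefSeq (GRCm38.p6), with the seed that pairs to targets, bases 2 to 8, in capitals.
mmu-miR-146a-5p: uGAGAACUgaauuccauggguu

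Promoters of 3 genes that chose the cells, Siglech, Ccr9 and Klk1, are shown because these genes separated pDCs from the rest of the marrow. The promoter of Cox6a2 was looked up and not found. Promoters of 6 of 9 genes looked up were found in the RefSeq table (GRCm38.p6), each from 250 bases before to 50 bases after the gene's start. Capitals mark CAGGTG or its reverse complement CACCTG, the E-box letters that E proteins such as Tcf4 are known to bind. Each of these 3 promoters held 1 match, and 20.2% of 32851 promoters of the same length held at least 1. Enrichment of the motif was not tested. The windows are chr7:55767934-55768233 (+ strand) for Siglech, chr9:123766961-123767260 (+ strand) for Ccr9 and chr7:44225110-44225409 (+ strand) for Klk1.
Siglech: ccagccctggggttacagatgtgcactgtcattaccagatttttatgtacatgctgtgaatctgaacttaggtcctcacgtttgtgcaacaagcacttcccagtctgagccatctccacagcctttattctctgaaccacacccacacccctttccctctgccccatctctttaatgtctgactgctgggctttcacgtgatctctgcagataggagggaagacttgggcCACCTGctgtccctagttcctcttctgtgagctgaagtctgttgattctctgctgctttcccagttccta
Ccr9: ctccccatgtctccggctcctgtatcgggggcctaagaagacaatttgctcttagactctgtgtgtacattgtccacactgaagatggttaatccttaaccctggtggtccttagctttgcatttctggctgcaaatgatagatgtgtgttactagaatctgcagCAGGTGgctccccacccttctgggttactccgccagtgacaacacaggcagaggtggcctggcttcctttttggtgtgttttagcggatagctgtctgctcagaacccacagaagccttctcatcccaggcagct
Klk1: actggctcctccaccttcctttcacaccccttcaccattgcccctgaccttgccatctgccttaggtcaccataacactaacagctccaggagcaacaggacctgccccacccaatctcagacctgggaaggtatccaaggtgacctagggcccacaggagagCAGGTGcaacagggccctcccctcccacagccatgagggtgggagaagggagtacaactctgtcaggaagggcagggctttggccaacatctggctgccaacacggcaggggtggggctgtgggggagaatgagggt

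The library labels were first checked in the pDCs. Diaph1 stood at 192 CPM (UMIs summed over the cells and scaled to the usual counts-per-million unit) in TWT, 193 in IL-6 KO and 15.4 in TKO, and no DKO pDC had a Diaph1 UMI. The TKO value was 12.5-fold below TWT, in the direction of its label. Xist had a UMI in all 134 IL-6 KO pDCs, at 2469 CPM, and in 1 cell of the other libraries. Ddx3y and Eif2s3y, on the Y chromosome, were at 91.2 and 75.2 CPM in TWT, at 85.2 and 84.0 CPM in TKO, with no UMI in pDCs of IL-6 KO. That library was therefore from female marrow and the others from male, so genotype and sex cannot be told apart in any comparison with it.

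pDCs made up a like share of the marrow in 3 of the 4 libraries and were rare in DKO. They were 1.91% (1.60 to 2.27) of kept cells in TWT, 1.79% (1.5 to 2.12) in IL-6 KO and 1.76% (1.48 to 2.08) in TKO. These 3 intervals overlap throughout, and the TKO share over the TWT share was 0.919 (0.717 to 1.18). In DKO they were 0.104% (0.0498 to 0.191), and the TWT share was 18.4-fold higher (9.70 to 39.3). The shares are relative to all kept cells, so fewer pDCs and more of other cells cannot be told apart.

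**Figure D1:**
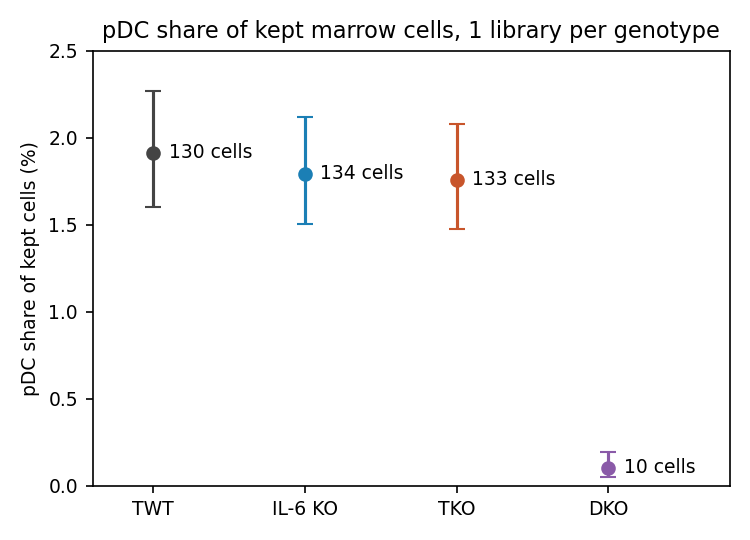
The y axis gives the pDC share of kept cells in percent, with 1 point per library and its 95% exact binomial interval, and the number of pDCs beside it. TWT, IL-6 KO and TKO lie between 1.76% and 1.91% with overlapping intervals, and DKO lies at 0.104%.

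The rule moved few cells. Among TWT, IL-6 KO, TKO and DKO, Siglech at 2 UMIs was met by 154, 158, 171 and 13 barcodes, and 141, 151, 161 and 11 of these were kept cells. Just outside the rule, 4 TWT, 4 IL-6 KO and 16 TKO kept cells had at least 2 Siglech UMIs and no UMI of Ccr9, Klk1 or Cox6a2. These TKO cells held a median of 12 of 20 pDC markers outside the rule, against 15 in TKO pDCs. Counting them as well gave 1.97% in TKO and in TWT alike. Just inside the rule, 3, 3 and 5 pDCs of TWT, IL-6 KO and TKO had exactly 2 Siglech UMIs, while the medians were 13, 12.5 and 11. As many as 10 TWT, 3 IL-6 KO and 7 TKO barcodes with Siglech lay over the limit of 4000 genes.

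The label fitted the marker genes that the rule did not use. Each pDC held a UMI of a median of 15.5, 15 and 15 of the 20 markers in TWT, IL-6 KO and TKO, and the fewest in any was 6. Together these markers took 20986, 19216 and 21375 CPM, against 805 to 946 CPM in all other kept cells of those libraries. Summed over pDCs the libraries held 811061, 882787 and 845436 UMIs. The cells were of like depth, with medians of 5979.5, 6003 and 6017 UMIs and 2263, 2282.5 and 2222 genes. No barcode of a pDC occurred in another library. No pDC of these 3 libraries had a UMI of any of 18 interferon genes. For TWT, taking 3 counts as the limit that a count of 0 allows, at most 2.31% of 130 pDCs would hold a UMI of a given gene. This limits cells with a captured UMI, not cells expressing the gene.

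**Figure D2:**
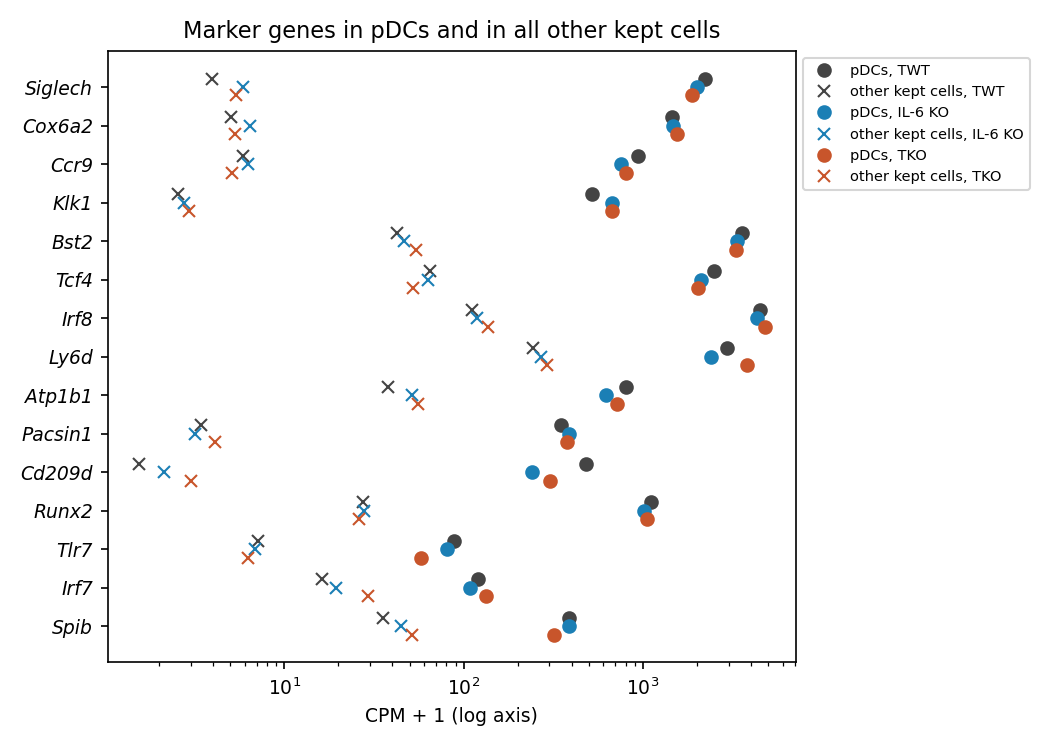
The x axis gives CPM plus 1 on a log axis, with circles for pDCs and crosses for all other kept cells, colored by library. Siglech lies at 2222, 2002 and 1861 CPM in pDCs and between 2.92 and 4.89 CPM elsewhere, and the markers from Bst2 down are above the other cells in each library as well.

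Transcription factors of pDC identity were abundant in each of the 3 libraries. Irf8, which shapes dendritic cell development, was the most abundant at 4504, 4306 and 4773 CPM in TWT, IL-6 KO and TKO. Tcf4 stood at 2483, 2110 and 2030 CPM, Runx2 at 1110, 1006 and 1044 CPM, and Bcl11a at 784, 852 and 867 CPM. Of 20 listed transcription factors measured, 0 differed 2-fold in any pair, where 1.77% of all measured genes did in TKO against TWT, 1.82% in IL-6 KO against TWT and 1.47% in TKO against IL-6 KO. In a list of this size 0 is near those shares. These levels were high beside other cells: Tcf4 was at 320.7 CPM in TWT mature B cells, 119.5 CPM in conventional dendritic cells and 68.6 CPM in monocytes.

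Among surface proteins, Bst2 (tetherin), which holds back budding virus, was at 3577, 3353 and 3310 CPM, and Siglech, an endocytic receptor, at 2222, 2002 and 1861 CPM. Of 2691 genes with at least 50 CPM in the pDCs of each library, 116 were at least 10-fold above all other kept cells in each. Cells were chosen on 4 of these genes, so the ratios describe the population and carry no test. Beside Siglech, Klk1, Cox6a2 and Ccr9, the top 15 by lowest ratio were Gm21762, Klk1b27, Atp2a1, Sh3bgr, Ccdc162, Cd300c, Ptprf, Cd209d, Tmem221, Cdh5 and Pacsin1. Several are best known elsewhere: Atp2a1, a calcium pump of skeletal muscle, was at least 255-fold above other cells, and Cdh5, the cadherin of vessel walls, at least 132-fold. Cox6a2, a heart and muscle cytochrome c oxidase subunit, was at 1455, 1461 and 1541 CPM. Klk1 and Klk1b27 belong to a family of close copies, so their counts are uncertain.

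The sensing genes were present in uneven amounts. Unc93b1, which escorts Toll-like receptors to endosomes, was at 800, 754 and 921 CPM. Tlr7, the receptor for single-stranded RNA, was at 87.5, 79.3 and 56.8 CPM and in 22.3%, 17.4% and 10.8% of pDCs thinned to 2000 UMIs. In mature B cells the shares with a Tlr7 UMI were 2.94%, 3.69% and 2.22%, with median depths of 2548, 2775 and 2388 UMIs. Unthinned, the pDC shares were 36.2%, 39.6% and 28.6%. Tlr9, the receptor for CpG DNA, was found in no thinned pDC of TWT, IL-6 KO or TKO, and in 2.31%, 0.746% and 3.01% of pDCs unthinned. Irf7, which drives interferon transcription, was at 120, 108 and 132.5 CPM. The 12 listed sensing genes measured had 0 calls in each pair, which is near the shares over all genes given above.

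Comparing pDCs between libraries, a gene counted as measured if 1 of the libraries reached 50 CPM and the pair held 30 or more UMIs, and it was called at a difference of 2-fold or more. TKO against TWT gave 32 higher and 28 lower genes of 3388 measured, 1.77% in all (0.945% higher and 0.826% lower). IL-6 KO against TWT gave 38 higher (1.12%) and 24 lower (0.706%) of 3401, 1.82% in all, and TKO against IL-6 KO gave 19 higher (0.559%) and 31 lower (0.912%) of 3399, 1.47% in all. The comparisons share libraries. Medians over all measured genes were 0.03, 0.02 and 0.01 on the log2 scale, and the median absolute log2 ratios were 0.22, 0.19 and 0.20.

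MHC class I genes of the Q region were higher in TKO pDCs. H2-Q7, a nonclassical class I gene, was at 304.5 CPM in TWT, 271 in IL-6 KO and 725 in TKO. TWT and IL-6 KO were alike and TKO stood above both, 2.38-fold (2.05 to 2.77) over TWT and 2.68-fold (2.30 to 3.12) over IL-6 KO. H2-Q6 was at 40.7, 19.3 and 121 CPM. In single cells the median was 1, 1 and 4 UMIs of H2-Q7, and 2, 6 and 30 cells held 8 or more, so the higher level was spread over many TKO pDCs. Thinned to 2000 UMIs, 39.2%, 35.6% and 63.8% of pDCs had a UMI (60.0%, 59.0% and 81.2% unthinned), beside 9.11%, 12.0% and 12.7% of monocytes. Summed over all other kept cells, a mix of cell types, the H2-Q7 ratio of TKO over TWT was 1.06. H2-Q6 and H2-Q7 are close copies, and reads of one could be counted for the other, so they are best read as a pair. The 10 DKO pDCs held 28 UMIs of H2-Q7 (327 CPM) and 1 of H2-Q6 (11.7 CPM). The 2 genes lie on chromosome 17.

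Ly6a (Sca-1), a surface protein of stem cells and interferon-exposed lymphocytes, was also highest in TKO among the 3 larger pDC sets. It was at 132 CPM in TWT, 142 in IL-6 KO and 361 in TKO, 2.73-fold (2.19 to 3.44) over TWT. TKO stood above the other pDC libraries and the 10 DKO pDCs stood at 571.5 CPM, where 1 cell held 29 of the 49 UMIs. Summed over all other kept cells, Ly6a in TKO was at 0.396 of TWT. That sum mixes cell types, and 20 listed lymphoid genes in it took 36717 CPM in TWT and 12348 CPM in TKO. The sum therefore does not show the direction in any single cell type. Thinned to 2000 UMIs, 13.1%, 14.4% and 42.3% of pDCs had a Ly6a UMI, and 29.7%, 27.2% and 37.3% of mature B cells did. Unthinned, the pDC shares were 26.9%, 26.1% and 50.4%. B cells carry Ly6a themselves, so theirs is no background share; in conventional dendritic cells it was 0%, 0% and 1.82%.

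Khk (ketohexokinase, the first enzyme of fructose use) was lower in IL-6 KO and in TKO than in TWT. It was at 287 CPM in TWT, 92.9 in IL-6 KO and 86.3 in TKO, 3.33-fold lower in TKO. TWT stood alone, with 72.3% of its pDCs holding a UMI, 38.8% in IL-6 KO and 38.3% in TKO. The 10 DKO pDCs, from IL6+/+ marrow, were low as well, with 4 UMIs (46.7 CPM) in 3 cells. Thinned to 2000 UMIs the shares were 37.7%, 13.6% and 11.5%, beside 2.35%, 2.30% and 1.78% of mature B cells. Monocytes, which also hold Khk, were alike in the 3 libraries at 16.9%, 15.3% and 16.0%. In all other kept cells Khk in TKO was at 0.919 of TWT. The gene lies 0.901 Mb from Il6 on chromosome 5. The part of this position in the result was not tested.

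Havcr1 (Tim-1, a phosphatidylserine receptor) was lower in TKO than in TWT and in IL-6 KO. It was at 87.5 CPM in TWT, 98.6 in IL-6 KO and 28.4 in TKO, 3.08-fold lower than TWT, and the 10 DKO pDCs held 1 UMI (11.7 CPM). All other kept cells held between 0.0834 and 0.280 CPM of Havcr1 in these libraries. Thinned to 2000 UMIs, 14.6%, 18.9% and 6.92% of pDCs had a UMI (41.5%, 45.5% and 15.8% unthinned), and no conventional dendritic cell or monocyte did. Havcr1 lies 3.36 Mb from Mir146a on chromosome 11, and Ccng1 lies 2.62 Mb from it. Ccng1 was at 46.9, 47.6 and 102 CPM and so 2.17-fold higher in TKO than in TWT. The 10 DKO pDCs held 0 Ccng1 UMIs, and in all other kept cells Ccng1 in TKO was at 0.723 of TWT. Havcr1 and Ccng1 were singled out after their values were seen, and of the pair only Havcr1 was called in all 11 settings of cells and scaling. Of measured genes within 5 Mb of Mir146a, 2 of 8 were called in TKO against TWT, beside 1.72% of genes elsewhere. Within 10 Mb it was 2 of 30. Within 20 Mb it was 4 of 69, where Hba-a1 and Hba-a2 joined Havcr1 and Ccng1. Those are hemoglobin genes, and 5 TWT cells held 97% of the hemoglobin UMIs of TWT pDCs. The part of this position was not tested.

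Yipf3, a Golgi membrane protein gene on chromosome 17, was at 66.6, 60.0 and 8.28 CPM in TWT, IL-6 KO and TKO. The 10 DKO pDCs held 5 UMIs of it (58.3 CPM). TKO was 8.04-fold below TWT in pDCs, and in all other kept cells it was at 0.155 of TWT, so the other marrow cells differed in the same direction. Of the genes called in TKO against TWT, 8 of 60 were also 2-fold apart in the other kept cells, among them Diaph1, Yipf3 and Gm10076. For IL-6 KO against TWT it was 5 of 62, which were Cirbp and the X or Y genes Xist, Gm47283, Eif2s3y and Ddx3y. For TKO against IL-6 KO it was 9 of 50, among them Xist, Eif2s3y and Ddx3y. These 2 counts therefore include the difference in sex. In the 3 comparisons 12, 15 and 11 called genes had the opposite sign in the other kept cells. The share of all measured genes 2-fold apart in the other kept cells was not counted.

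**Figure D3:**
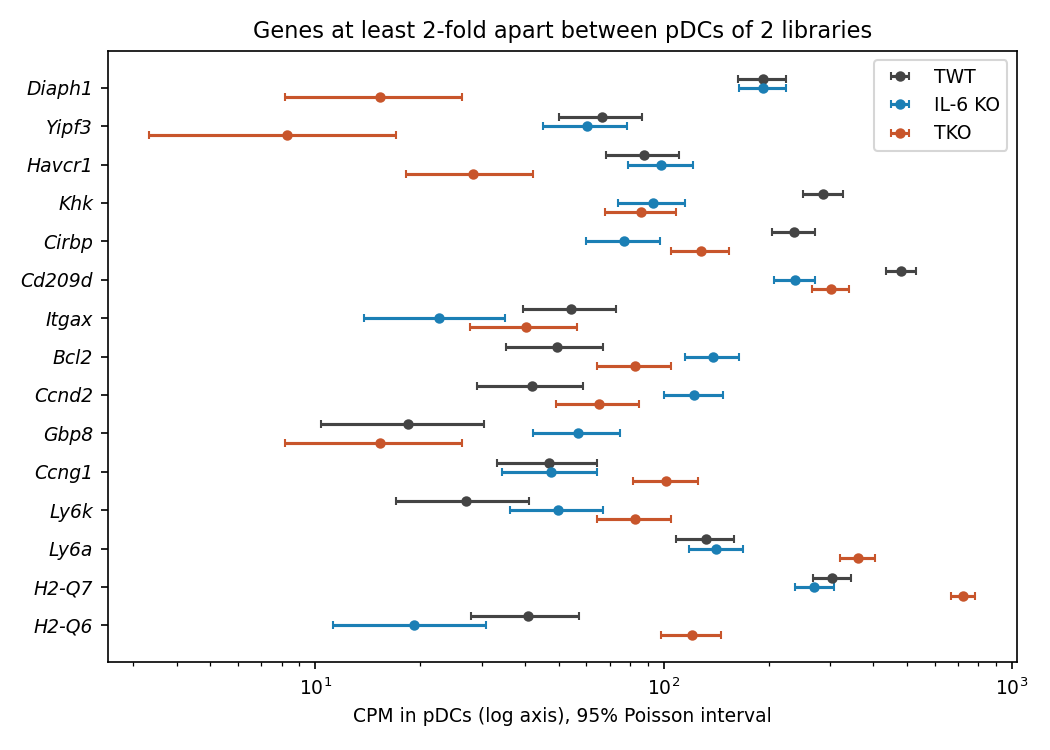
The x axis gives CPM in pDCs on a log axis with 95% exact Poisson intervals, 1 point per library, for 15 genes. All are named in the text except Ly6k, which was at 27.1, 49.8 and 82.8 CPM in TWT, IL-6 KO and TKO. H2-Q7 and Ly6a are highest in TKO at 725 and 361 CPM, Khk is highest in TWT at 287 CPM, and Bcl2 is highest in IL-6 KO at 138 CPM.

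Between IL-6 KO and TWT, 1 of 4 measured apoptosis regulators (Bcl2) and 1 of 14 measured genes of the cell cycle list (Hist1h1b) were higher in IL-6 KO, beside 1.12% of all genes. Bcl2, which blocks cell death, was at 49.3, 138 and 82.8 CPM in TWT, IL-6 KO and TKO, 2.80-fold (1.95 to 4.11) higher in IL-6 KO than TWT. Ccnd2 (cyclin D2) was at 41.9, 122 and 65.1 CPM, 2.92-fold (1.97 to 4.43). Gbp8, a guanylate-binding protein, was at 18.5, 56.6 and 15.4 CPM. Cd209d, a lectin of the DC-SIGN family, was at 481, 238 and 302 CPM, 2.02-fold lower in IL-6 KO, and Itgax (CD11c) at 54.2, 22.7 and 40.2 CPM, 2.39-fold lower. Without the pDCs that held other lineages' RNA, Cd209d was just under the 2-fold rule. Cirbp, a cold-inducible RNA-binding protein, was 3.07-fold lower and was at 0.375 of TWT in the other kept cells also. Gbp8, Itgax and Cirbp were called in each of 11 settings of cells and scaling, and Bcl2, Ccnd2, Cd209d and Hist1h1b were not. Hist1h1b was seen in 4.62% of TWT and 7.46% of IL-6 KO pDCs, and 1 IL-6 KO cell held 37 of its 128 UMIs there.

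Some calls came from few cells. Hemoglobin RNA was lower in TKO pDCs on a scale of 55.4-fold for Hbb-bs, yet 5 TWT cells held 97% of the 6462 hemoglobin UMIs, and without the 5 highest cells of each gene Hbb-bs was no longer 2-fold apart. Hba-a1 (-1.98 on the log2 scale), Hba-a2 (-1.58) and Hbb-bt (-1.49) were still lower in TKO by the rule in that setting. Lyz2, a lysozyme of myeloid cells, was at 122, 910 and 1029 CPM, and 5 cells held 88.8% of its UMIs in IL-6 KO and 91.0% in TKO. One TKO cell held 117 of 118 Ccl5 UMIs. Members in which markers of other lineages held 2% or more of UMIs numbered 6 in TWT, 3 in IL-6 KO and 2 in TKO. Without them TKO against TWT gave 54 calls, of which 49 were among the 60. Scrublet, a doublet caller, marked 1, 3 and 0 pDCs.

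The interferon-stimulated genes held a few calls. Of 18 measured, 3 were higher in TKO than TWT (Ly6a, Ifitm3 and Slfn2) and 0 lower, beside 0.945% and 0.826% of all genes. The list median was 0.17 on the log2 scale against 0.03 over all genes. It was 0.22 in IL-6 KO against TWT, with 0.02 over all genes, so TKO was not alone in it. TKO against IL-6 KO had a list median of -0.08. Ifitm3 rested on few cells: its log2 ratio of 1.24 in TKO against TWT was 0.31 without its 5 highest cells. In IL-6 KO against TWT its ratio of 1.66 was -0.0064 without the doublets called by Scrublet. Slfn2, of the Schlafen family, was at 41.9, 83.8 and 88.7 CPM. The NF-kB and miR-146a target list had 10 measured genes with 0 calls in TKO against TWT and a median of -0.02; Irak1, a known target of miR-146a, was at 94.9, 82.7 and 73.3 CPM. Il6ra was at 51.8, 66.8 and 41.4 CPM. Of 22 measured formin and actin genes, Diaph1 alone was called between TKO and TWT.

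MHC class II genes varied widely between pDCs and less between libraries. H2-Aa was at 1451, 907 and 1102 CPM, H2-Ab1 at 1297, 868 and 1093, and Cd74, the invariant chain, at 4493, 3291 and 3869. None of 8 measured class II and costimulation genes was called in TKO or in IL-6 KO against TWT, and their medians were -0.31 and -0.60 on the log2 scale. Thinned to 2000 UMIs, the median pDC held 14.5, 8.5 and 7.5 UMIs of H2-Aa, H2-Ab1, H2-Eb1 and Cd74. The range ran from 0 to 70, 48 and 75 UMIs. Cells with 2 or fewer made up 29.2% (21.6 to 37.8), 38.6% (30.3 to 47.5) and 42.3% (33.7 to 51.3) of TWT, IL-6 KO and TKO pDCs, and these intervals overlap. Cells with 10 or more made up 59.2%, 48.5% and 48.5%, and 15, 17 and 12 cells lay between. These limits were set after the data were seen and do not mark separate classes of cells.

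**Figure D4:**
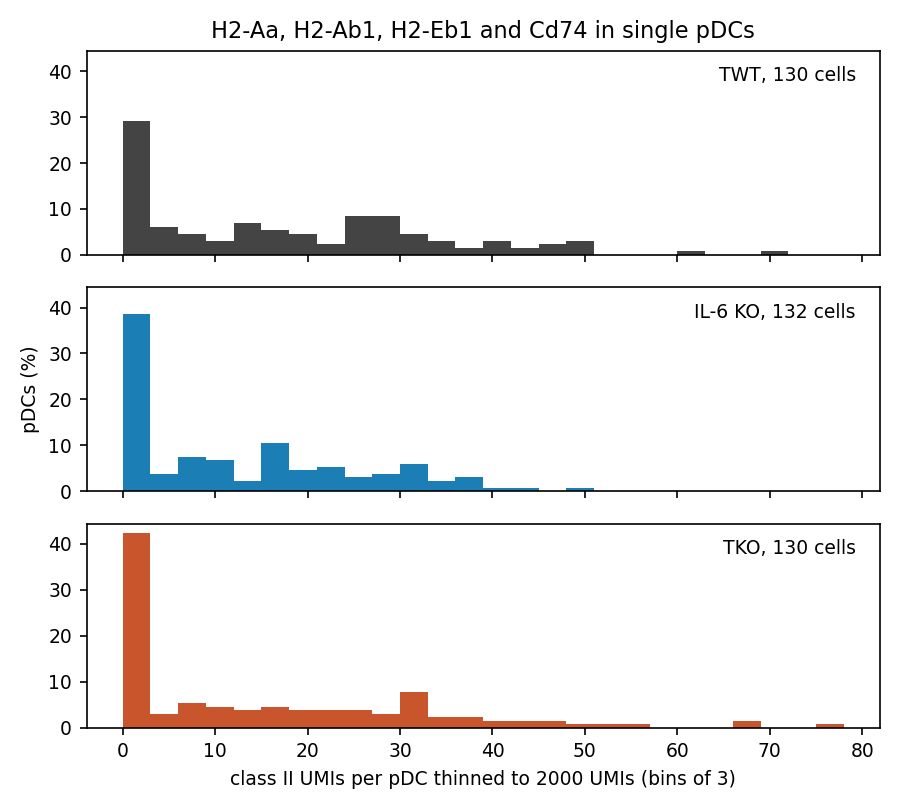
The x axis gives UMIs of 4 class II genes in each pDC thinned to 2000 UMIs, in bins of 3, and the y axis the percent of that library's pDCs. A peak at 0 to 2 UMIs stands in each library, at 29.2% in TWT, 38.6% in IL-6 KO and 42.3% in TKO, with a broad tail above.

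Genes that varied with class II among cells were ranked by the weakest of their correlations in the 3 libraries, so the genes named here were chosen for a like sign and size in each. As a description with no test, Pearson correlations over 130, 134 and 133 cells were taken between the summed class II level and each of 4022 genes seen in 20% of pDCs. Class II itself correlated weakly with depth (r of -0.17, -0.25 and -0.20). Klk1 had r of 0.59, 0.62 and 0.63. Iglc3, a lambda light chain gene, had 0.66 to 0.74, and Cd209d, H2-K1, H2-Q7, Ctsl (cathepsin L), Pltp and Fth1 were also among the most positive. Vim, Tmsb10, H2afy, Stmn1, Bex6 and Runx1 were among the most negative, at -0.53 to -0.51 for H2afy in every library. Their own correlations with depth differed, at 0.52, 0.44 and 0.45 for Stmn1 and at 0.05, 0.08 and 0.15 for Runx1. Klk1 is a gene of the pDC rule, and its values are given as a description. Klk1 UMIs were in 13.2%, 9.80% and 12.7% of class II-low cells and in 63.6%, 68.8% and 74.6% of class II-high cells. These cells share a library and differ in depth. Dividing cells lay mostly in the low range: 5, 8 and 9 pDCs of TWT, IL-6 KO and TKO had at least 3 UMIs of 12 mitosis genes after thinning, and 4, 8 and 9 of these were class II-low. Their median depths were 12991, 11159 and 10756 UMIs, above the pDC medians.

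**Figure D5:**
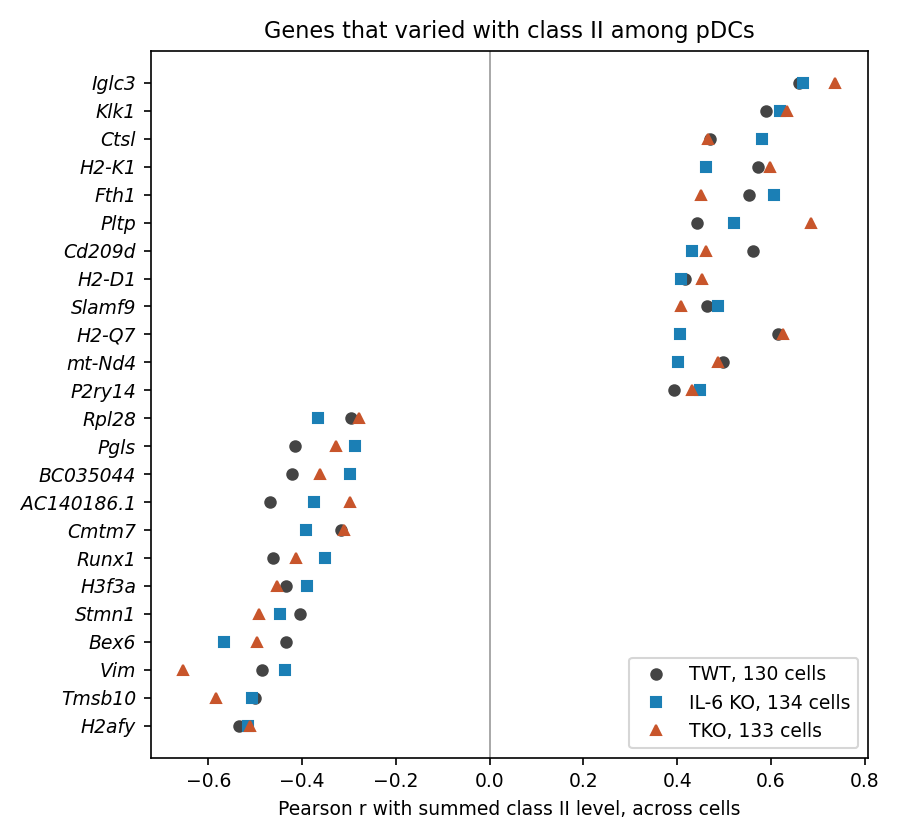
The x axis gives Pearson r across the cells of each library between a gene and the summed class II level. The 12 most positive genes lie above 0.39 in every library, led by Iglc3 and Klk1, and the 12 most negative lie at -0.279 or below, led by H2afy and Tmsb10.

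Promoters of class II genes and H2-Q7 that correlated with class II among pDCs are shown for H2-Aa and H2-Eb1 (members of the class II sum) and H2-Q7. Capitals mark CCAAT or its reverse complement ATTGG, the core of the Y-box of these promoters, which 37.4% of promoters of the same length held at least once. The windows are chr17:34287774-34288073 (- strand), chr17:34305617-34305916 (+ strand) and chr17:35438905-35439204 (+ strand), from RefSeq GRCm38.p6, with 1, 2 and 2 matches.
H2-Aa: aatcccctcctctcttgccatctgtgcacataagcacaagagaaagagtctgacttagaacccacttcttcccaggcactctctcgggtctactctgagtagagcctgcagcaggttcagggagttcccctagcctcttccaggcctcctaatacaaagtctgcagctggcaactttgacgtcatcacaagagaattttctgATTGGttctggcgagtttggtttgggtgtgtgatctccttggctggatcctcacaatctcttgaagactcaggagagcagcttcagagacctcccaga
H2-Eb1: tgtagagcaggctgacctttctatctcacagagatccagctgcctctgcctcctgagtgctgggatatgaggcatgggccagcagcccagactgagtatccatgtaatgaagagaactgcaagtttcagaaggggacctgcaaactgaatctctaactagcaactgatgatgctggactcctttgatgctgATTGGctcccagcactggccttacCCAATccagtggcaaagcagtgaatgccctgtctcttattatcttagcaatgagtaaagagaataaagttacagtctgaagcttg
H2-Q7: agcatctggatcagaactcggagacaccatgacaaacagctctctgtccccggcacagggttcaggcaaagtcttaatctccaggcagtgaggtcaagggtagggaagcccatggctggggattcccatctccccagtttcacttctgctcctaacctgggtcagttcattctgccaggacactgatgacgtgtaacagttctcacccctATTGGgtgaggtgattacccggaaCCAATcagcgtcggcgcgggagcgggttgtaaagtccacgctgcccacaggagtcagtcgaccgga

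Other genes set TKO and IL-6 KO pDCs apart. Hsd11b1, which regenerates active glucocorticoid, was at 39.5, 18.1 and 87.5 CPM in TWT, IL-6 KO and TKO, 4.83-fold (2.79 to 8.88) higher in TKO than in IL-6 KO. Tsc22d3, a gene that glucocorticoid induces, was at 50.6, 74.8 and 26.0 CPM and so ran in the other order. In the other kept cells Tsc22d3 in TKO was at 0.607 of IL-6 KO, in the same direction as in pDCs, and Hsd11b1 was at 1.10. A part of glucocorticoid was not tested. Cd8b1, a T cell coreceptor chain, was at 54.2, 30.6 and 85.2 CPM, where all 6 T cell markers with it summed to 61.6, 91.8 and 86.3 CPM. Jun, of the AP-1 factor, was at 101, 62.3 and 147.9 CPM. Nrxn2, a neurexin that was under 1 CPM in other kept cells, was at 48.1, 69.1 and 22.5 CPM. TWT lay between the other libraries for each of these genes. Each but Jun was called between TKO and IL-6 KO in all 11 settings.

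The 10 DKO pDCs were described singly. Of these, 8 held Irf8 UMIs at 13 to 49 per cell, and in these 8 Cox6a2 was at 2 to 15 UMIs. The other 2 had no Irf8, Cox6a2 or Ly6d UMI and 8 or 9 of 20 markers. One of those held 634 class II UMIs, so the label fitted these 2 cells less well. Class II UMIs per cell had a median of 86.5 in DKO and 48, 25 and 21 in TWT, IL-6 KO and TKO. All 10 had no Diaph1 UMI. With 10 cells no gene was called between DKO and the other libraries, and the DKO values given are descriptions.

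Other lists held few or no calls, which with lists of this size is near the 1.77% of all genes. Of 28 measured genes of the secretory pathway, 0 were called in TKO against TWT, and the list's median was 0.29 on the log2 scale. Hsp90b1, a chaperone of the endoplasmic reticulum, was at 870.5, 996 and 1117 CPM. Mitochondrially encoded genes were at 68111, 61760.1 and 56069 CPM in sum, with a median of -0.31 in TKO against TWT and 0 of 12 called; in the other kept cells the sums were 25821, 23909 and 22083 CPM. Of 17 cytokine receptor genes 0 were called in TKO against TWT. Trafficking receptors had 0 of 14 called in TKO against TWT. Flt3, the receptor for the growth factor of dendritic cells, was at 169, 155 and 153 CPM. The receptor chains for type I interferon were not called in any pair, with Ifnar1 at 216, 157.5 and 174 CPM and Ifnar2 at 265, 287 and 322 CPM. Of 17 measured cell cycle genes 0 were called in TKO against TWT, with a median of 0.54 on the log2 scale. Few cells carried much of this RNA: 5 cells held 88.9% of the UMIs of G2/M (division) genes in TWT and 73.8% in TKO. Dividing pDCs, as counted above, made up 3.85% (1.26 to 8.75) in TWT and 6.92% (3.21 to 12.7) in TKO, and these intervals overlap. The median therefore need not describe most pDCs. Dntt, a lymphoid enzyme, was at 229, 270 and 290 CPM and Il7r at 231, 283 and 245 CPM.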

How the data were processed

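Marrow cells of 4 mouse libraries were profiled with 10x 3′ v3 chemistry. The deposited matrices hold UMI counts made by the authors with Cell Ranger (3.0.2 in the matrix header) on mm10, not normalized; the filters behind the barcodes are not given in the sources used here. Libraries held 8423 to 10866 barcodes and 61292684 to 85145074 UMIs. UMI counts of pDCs were summed per library and scaled to CPM. A gene was measured at 50 CPM in either library and 30 UMIs over both, and called at a 2-fold ratio; log2 ratios used a pseudocount of 1 CPM. Shares carry exact Clopper-Pearson and Poisson intervals at 95%, and ratios exact conditional intervals; they cover counting error only. For shares of cells with a UMI, cells were thinned to 2000 UMIs. The code was tested on simulated counts. The rule for named genes was the 8 highest and 8 lowest called genes of a pair, called genes of the lists, the 4 most abundant measured genes of a list, markers, and the 15 genes most above other cells. The pDC rule and all lists were chosen with earlier results of these data known. Python 3.11.15, scanpy 1.11.5 (Scrublet), scipy 1.17.1 and pandas 2.3.3 were used. Havcr1, Ccng1, Tsc22d3, Nrxn2 and Gm10076 fell outside this rule and were chosen after their values were seen, as were list genes given as examples without a call. Some items are not reported here.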

Additional observations from a re-analysis of the deposited data

How the results depend on the processing

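The pDC shares stayed within the main intervals in each library under each cell setting tried: 200 detected genes as the only filter, Siglech at 1 or 3 UMIs, no limit on Cd79a and S100 genes, doublets left out, and 2 settings added after seeing the data. TKO against TWT, IL-6 KO against TWT and TKO against IL-6 KO gave 60, 62 and 50 calls. They gave 23, 18 and 15 at a minimum of 100 CPM and 205, 194 and 196 at 20 CPM. Without the 5 highest cells of each gene, added after seeing the data, the counts were 84, 87 and 81 among the measured genes and 244, 226 and 220 with minimums of 25 CPM and 15 UMIs, the version tried first. With 200 detected genes as the only filter the counts were 48, 55 and 56, of which 36, 28 and 38 were among the 60, 62 and 50, and IL-6 KO against TWT turned from 38 higher and 24 lower to 21 and 34, so many single calls near 2-fold depend on the cells kept. Calls held in each of 11 cell and scale settings numbered 20, 17 and 19, and among them were Khk, Ly6a, H2-Q7 and Diaph1 in TKO against TWT. The 17 for IL-6 KO against TWT included the X or Y genes Xist, Kdm6a, Eif2s3y, Ddx3y and Gm47283. The 19 for TKO against IL-6 KO included Xist, Eif2s3y and Ddx3y. The libraries of these 2 comparisons differ in sex. Hba-a1 and Hba-a2 in TKO against TWT and Ccl5 in IL-6 KO against TWT held as well. Yet 5 cells held 96.5% of the Ccl5 UMIs in IL-6 KO, so a call held in all 11 settings can still rest on few cells. The log2 ratio changed sign for Ccl5 (-1.32) and Retnlg (-0.46) in TKO against TWT and for Hba-a2 in TKO against IL-6 KO (0.053) without the 5 highest cells, for Retnlg (-0.30) without pDCs holding other lineages' RNA, for Iglc1 (1.04) with free RNA subtracted, and for Lyz2 (-0.11) and Ifitm3 (-0.0064) in IL-6 KO against TWT without doublets. The cause was not tested. No paired analysis was possible because each group has 1 library. Each pDC set is 130 to 134 cells, so a gene near 50 CPM rests on about 40 UMIs.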
